A study of Mus musculus with 2 samples.

Results

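Hepatocyte identity and metabolism are set by a small group of transcription factors, and 10 of them were followed here across the cell clusters of a single-cell RNA-seq data set of mouse liver cells. The 10 factors were Hnf4a, Stat3, Ppara, Rxra, Nr1i3, Nr1h4, Cebpa, Cebpb, Foxa3 and Esr1. They were chosen by name and looked up in 2 tables of cluster marker genes, which together held 2783 genes. Of the 10 factors, 5 were listed for a hepatocyte cluster in the table of hepatocytes (Hnf4a, Stat3, Ppara, Nr1i3 and Cebpa). Rxra was listed only in the table of all cells. Nr1h4, Cebpb, Foxa3 and Esr1 were listed in neither table.

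The hepatocytes came from wild type BALB/c mice that received 5 daily intraperitoneal injections of PBS or of 0.5 µg rIL-33, the recombinant form of an alarm cytokine that activates group 2 innate lymphoid cells (ILC2s). The study describes the mice as fasted, and its methods give for hepatocyte isolation an age of 8 to 10 weeks and liver perfusion with Liberase in place of collagenase. Each condition gave 1 library, 2 in all, made with a droplet-based 3′ kit, and the number of mice behind each library is not given in the sources used here. Both libraries were pooled in the tables, so PBS-treated and rIL-33-treated cells cannot be told apart in any value below. There were no replicates, no test was run, and the depth per library and per cell is unknown.

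HNF4A is the nuclear receptor that maintains the hepatocyte state and drives genes of gluconeogenesis, lipoprotein assembly and coagulation. Around it work C/EBP and FOXA factors and nuclear receptors that sense fatty acids (PPARA), xenobiotics (CAR, encoded by Nr1i3), bile acids (FXR, encoded by Nr1h4) and oestrogen (ESR1), and several of them bind DNA as a pair with RXRA. STAT3 is held inactive in the cytoplasm until cytokine receptors such as those of the IL-6 family activate it through Janus kinases, after which it enters the nucleus and induces acute phase genes.

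For each listed gene the tables give a pair of shares, the percentage of cells in which the gene was detected (value above 0). The first share is that of the cluster and the second that of its reference, which was all other hepatocytes in the first table and all other cells in the second. Which values the shares were counted on is not given in the sources used here, so a value above 0 need not be a counted transcript, and "detected" below means only a value above 0. A share is not an amount of mRNA per cell, and shares of different genes do not rank their expression. Every row had a share of at least 25% on one side and a positive fold change. A gene that is not listed therefore missed those limits or the authors' own cutoffs, and its share is unknown rather than 0. The hepatocyte table held 1604 genes in 5 clusters, Hepatocyte1 to Hepatocyte5, whose relative sizes, computed from genes listed for several clusters, were 55.6%, 14.9%, 10.1%, 18.1% and 1.47% of hepatocytes. Cell type markers were looked up there too. That table compares hepatocyte clusters only with each other, so this cannot check the cluster names. All 4 hepatocyte markers (Alb, Apoa1, Ttr and Serpina1c) were listed for a hepatocyte cluster, at shares of 98.2% to 100% on both sides. Of 28 markers of Kupffer, endothelial, stellate, B, T, neutrophil, erythroid and biliary cells, 0 were listed. Their shares in hepatocytes are therefore unknown rather than 0.

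Every factor listed in the hepatocyte table was listed for Hepatocyte4 or Hepatocyte5, and none for Hepatocyte1, Hepatocyte2 or Hepatocyte3, which held 10.5%, 3.49% and 7.67% of the genes. Hepatocyte4 held Hnf4a, Stat3, Cebpa and Ppara, 4 of the 5 listed factors, where 54.7% of all genes in the table were listed for that cluster. Hepatocyte5 held Nr1i3 and Ppara, 2 of 5, where 54.3% of all genes were. The share inside was at least 10 percentage points higher for all 4 factors listed for Hepatocyte4, as for 870 of the 877 genes listed there. It was so for both factors listed for Hepatocyte5, as for 862 of the 871 genes listed there. Out of all genes in the table, listed for the cluster or not, these were 54.2% and 53.7%. Ppara was listed for both clusters, as were 26.8% of the genes. Hnf4a, Stat3 and Cebpa were listed for Hepatocyte4 without Hepatocyte5, as were 27.5%, and Nr1i3 for Hepatocyte5 without Hepatocyte4, as were 27.2%. Since 82.2% of all genes in the table were listed for at least one of these clusters, the factors lay where most listed genes lay. Of the 880 Hepatocyte4 rows, 878 had a higher share inside the cluster than outside, and of the 874 Hepatocyte5 rows 873 did. Whether cells of these clusters were sequenced more deeply was not tested, since no count per cell was analysed.

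**Figure D1:**
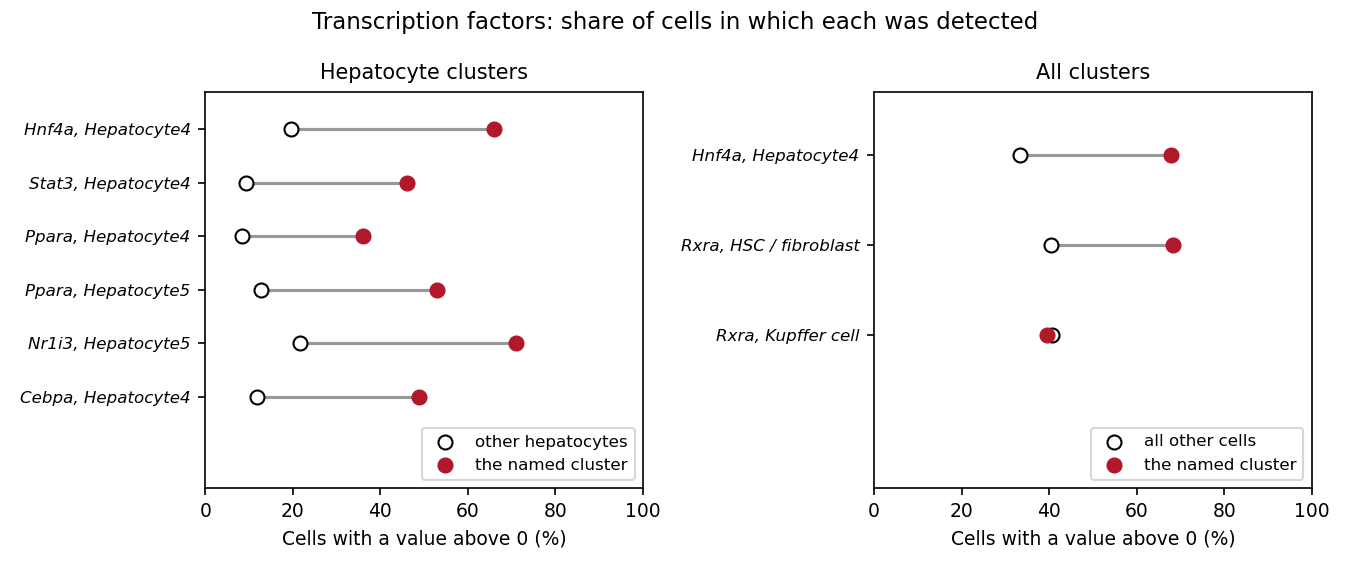
Percentage of cells in which each gene was detected, that is, had a value above 0 (horizontal axis), for each listed factor and cluster (rows). Filled red points give the named cluster and open points the reference cells, in the hepatocyte table (left) and the table of all cells (right), with both libraries pooled. In the left panel all 6 red points lie to the right of their reference, whereas Rxra in Kupffer cells had 39.4% against 40.6%.

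Hnf4a was detected in 65.9% of Hepatocyte4 cells and in 19.7% of the other hepatocytes. The difference was 46.2 percentage points and the ratio 3.35. Among the 880 rows of this cluster only 15.1% had a larger difference, and Hnf4a was the highest of the 4 factors listed there. Weighting both shares by the cluster sizes gave 28.1% of all hepatocytes with Hnf4a, and 42.6% of those positive cells lay in Hepatocyte4, a cluster of 18.1% of hepatocytes. Hnf4a therefore remained detected outside its listed cluster. Whatever Hepatocyte5 held, the share over Hepatocyte1 to Hepatocyte3 was between 18.2% and 20.1%.

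Among the nuclear receptors that sense lipids and xenobiotics, Ppara was the only factor listed for both clusters. PPARA turns on fatty acid oxidation and ketogenesis during fasting. In Hepatocyte4, 36.1% of cells held Ppara, compared with 8.3% of cells outside it. In Hepatocyte5 the share was 53.0%, compared with 12.7% outside. The differences were 27.8 and 40.3 percentage points, and the ratios 4.35 and 4.17. The difference in Hepatocyte4 was below that cluster's median over all listed genes, 33.1 points, and the difference in Hepatocyte5 was below its median of 42.95 points. Removing both clusters left a share of 7.48% over Hepatocyte1 to Hepatocyte3, with a range of 7.43% to 7.53% from the rounding of the shares. Hepatocyte4 held 49.1% of all Ppara-positive hepatocytes and the small Hepatocyte5 held 5.84%.

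Nr1i3 encodes CAR, the receptor that induces drug-metabolising cytochromes. It was listed for Hepatocyte5 alone, with a share of 70.9% against 21.6% of the other hepatocytes. The difference was 49.3 percentage points, and 37.3% of the 874 rows of the cluster had a larger one. Because Hepatocyte5 is small, it held 4.67% of all Nr1i3-positive hepatocytes, and 22.3% of hepatocytes were positive overall. The share in Hepatocyte4 cannot be read from the table, and the share over Hepatocyte1 to Hepatocyte3 could lie anywhere from 3.95% to 26.5%.

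Cebpa, a leucine zipper factor that drives genes of the mature, nondividing hepatocyte, was detected in 48.8% of Hepatocyte4 cells and in 11.8% of the others. Stat3 was detected in 46.2% of Hepatocyte4 cells and in 9.3% of the others. The differences, 37.0 points for Cebpa and 36.9 points for Stat3, were nearly equal, while the ratio was 4.14 for Cebpa and 4.97 for Stat3. Over all hepatocytes the shares were 18.5% and 16.0%, and Hepatocyte4 held 47.8% of Cebpa-positive and 52.4% of Stat3-positive cells. Over Hepatocyte1 to Hepatocyte3 the share was 10.2% to 12.0% for Cebpa and 7.64% to 9.47% for Stat3, whatever Hepatocyte5 held.

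The order of the factors depended on the measure. By difference in Hepatocyte4 the order was Hnf4a, Cebpa, Stat3 and Ppara, at ranks 134, 347, 352 and 574 of 880 rows. By ratio it was Stat3, Ppara, Cebpa and Hnf4a. If transcripts per cell followed a Poisson distribution, the shares would correspond to ratios of mean transcript number of 6.35 for Stat3, 5.33 for Cebpa, 5.17 for Ppara and 4.90 for Hnf4a, against a median of 5.96 over all listed genes of the cluster. In Hepatocyte5 the corresponding values were 5.56 for Ppara and 5.07 for Nr1i3, against a median of 8.52. Only Stat3 exceeded the median of its cluster on this scale. The median difference of the 4 factors in Hepatocyte4 was 36.95 points, beside 33.1 over all rows, and the median of the 2 in Hepatocyte5 was 44.8 points, beside 42.95.

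**Figure D2:**
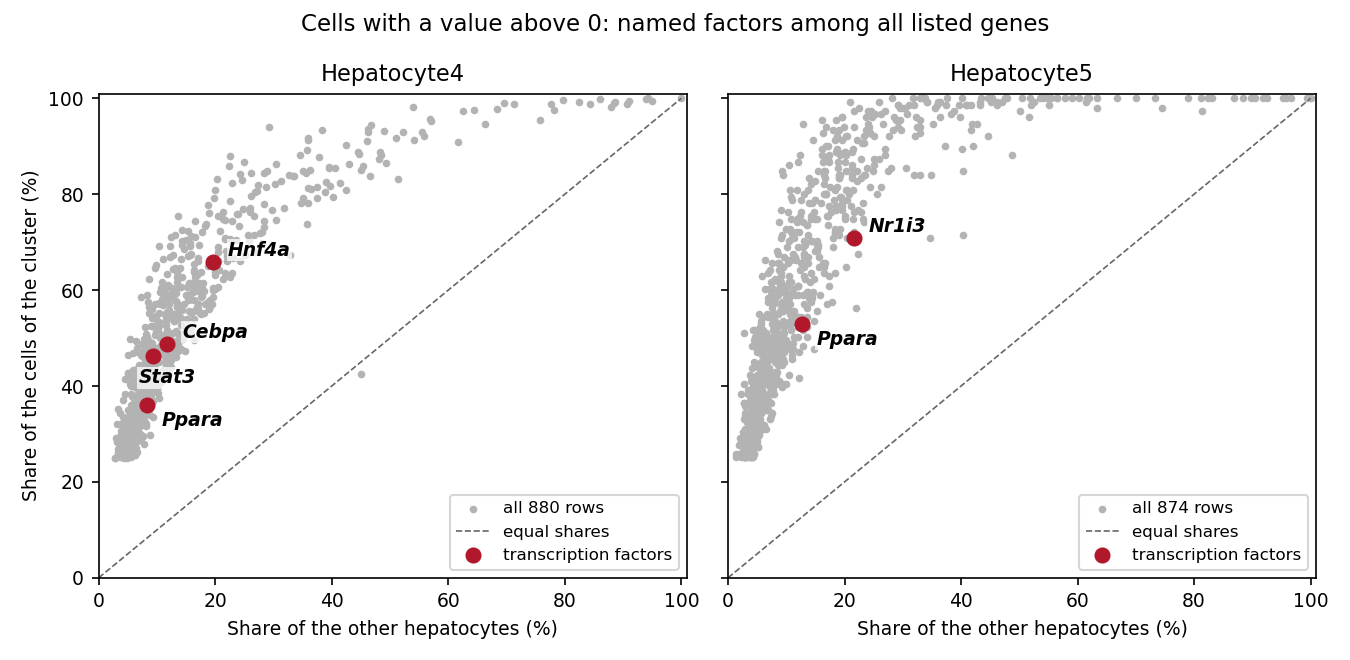
Percentage of cells with the gene detected, inside the cluster (vertical axis) and in the other hepatocytes (horizontal axis), for all genes listed for Hepatocyte4 (left) and Hepatocyte5 (right). Grey points are listed genes, red points the named factors, and the dashed line marks equal shares. The factors lie within the cloud of listed genes, and Hnf4a, at 65.9% against 19.7%, is the highest of the 4 in Hepatocyte4.

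For each factor the 3 genes with the nearest shares were looked up. Since 3 were named whatever the pattern, they do not measure how common it was. Among the other genes listed for Hepatocyte4 alone, Serp1, Pabpc1 and Dmgdh were nearest to Hnf4a, with shares of 66.0%, 65.3% and 66.1% inside and 20.4%, 20.1% and 20.5% outside. Nadk, Eif4b and Ssr3 were nearest to Cebpa, within a root mean square distance of 0.50 percentage points, and Gucd1, Rab10 and Prox1 were nearest to Stat3, within 0.54 points. Prox1 is itself a transcription factor of hepatocytes. For Ppara, compared over 4 shares, the nearest were Jun, Itch and Acsf2, within 1.59 points. For Nr1i3 they were Tmem176b, Mup12 and Coq8a, within 2.47 points. Likeness was taken over 2 shares for each factor other than Ppara.

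The table of all cells held 1755 genes in 12 clusters, 5 of hepatocytes and 7 of other cells. Its shares differ from those of the hepatocyte table. Among the 825 gene and cluster pairs in both, 115 were equal within 0.1 percentage points inside the cluster, 695 were higher in the table of all cells and 15 lower, with a median difference of 10.5 points. Hnf4a was listed there for Hepatocyte4 again, at 67.9% against 33.3% of all other cells, a difference of 34.6 points. That gives a share of 38.95% over all cells, above the 35.3% that the hepatocyte table allows at most even if every other cell were positive. The 2 tables were therefore not computed from the same values, and a difference between them cannot be put down to the reference cells alone. Stat3, Ppara, Nr1i3 and Cebpa were not listed in the table of all cells. Of the genes in that table, 25.2% were listed for Hepatocyte4.

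Rxra, the common dimer partner of PPARA, CAR and FXR, was listed for 2 clusters of nonparenchymal cells and no hepatocyte cluster. In the HSC / fibroblast cluster it was detected in 68.4% of cells against 40.5% of all other cells, a difference of 27.9 points. The stellate cell markers Rgs5 (100%), Dcn (100%) and Lrat (94.7%) were listed for this cluster, and so were the endothelial markers Pecam1 (73.7% against 5.6%), Stab2 (73.7% against 12.6%) and Clec4g (52.6%), whose part in the Rxra value was not tested. In Kupffer cells, the liver macrophages, the share was 39.4% against 40.6%, not higher than in the reference cells. Of the genes in the table, 28.4% were listed for Kupffer cells and 30.5% for HSC / fibroblast cells. Of the rows of the HSC / fibroblast cluster, 94.6% had a larger difference than Rxra, and 88.0% of Kupffer cell rows did. The share of Rxra over all cells was 40.6% by the Kupffer cell row and 40.5% by the HSC / fibroblast row. Hepatocyte clusters made up 90.0% of all cells, so by these values most cells with Rxra were hepatocytes, although no hepatocyte cluster was listed for it. The HSC / fibroblast cluster was 0.171% of all cells, the smallest of the 12 clusters, so its shares rest on few cells.

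Promoter sequence is shown for 4 factors that were listed. Hnf4a was taken because the study proposes that STAT3 acts on it. Stat3 and Cebpa shared the Hepatocyte4 listing with Hnf4a, and Nr1i3 was listed for Hepatocyte5. The sequences are from RefSeq, build GRCm38.p6, and cover up to 250 bases before the annotated start of transcription, trimmed where an exon is annotated. They read 5′ to 3′ on the strand of the gene. Capitals mark matches to any of 7 motifs, searched on both strands.
Hnf4a, chr2:163506607-163506807, plus strand: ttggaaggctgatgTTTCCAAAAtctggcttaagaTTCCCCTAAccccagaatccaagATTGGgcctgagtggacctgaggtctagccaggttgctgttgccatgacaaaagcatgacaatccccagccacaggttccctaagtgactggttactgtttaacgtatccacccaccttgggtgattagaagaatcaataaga
Stat3, chr11:100939541-100939790, minus strand: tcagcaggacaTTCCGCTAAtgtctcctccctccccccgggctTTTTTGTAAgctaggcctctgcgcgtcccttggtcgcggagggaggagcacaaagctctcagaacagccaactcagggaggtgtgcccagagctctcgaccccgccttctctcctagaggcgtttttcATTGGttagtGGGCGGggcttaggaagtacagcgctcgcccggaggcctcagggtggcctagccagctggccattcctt
Cebpa, chr7:35119043-35119292, plus strand: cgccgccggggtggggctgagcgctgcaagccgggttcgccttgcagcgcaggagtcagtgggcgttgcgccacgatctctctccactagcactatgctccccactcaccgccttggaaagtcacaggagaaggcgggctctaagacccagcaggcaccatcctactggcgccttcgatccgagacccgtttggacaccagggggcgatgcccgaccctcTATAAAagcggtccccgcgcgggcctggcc
Nr1i3, chr1:171213720-171213969, plus strand: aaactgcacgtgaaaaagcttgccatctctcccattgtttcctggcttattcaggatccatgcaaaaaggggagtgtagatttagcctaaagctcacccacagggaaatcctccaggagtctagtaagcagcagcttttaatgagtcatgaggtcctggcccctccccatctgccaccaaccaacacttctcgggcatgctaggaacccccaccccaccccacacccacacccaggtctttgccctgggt

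The motifs were the STAT element TTCNNNGAA, the nuclear receptor half-site AGGTCA, the FOXA core TGTTTAC and the CCAAT box. The TATA box TATAAA, the GC box GGGCGG and the pattern TTNCNNNAA, chosen for C/EBP factors, were also searched. That pattern is not a palindrome and is not the C/EBP consensus, so its matches are not called C/EBP sites. The STAT element and TTNCNNNAA can overlap. Of 32851 promoter windows of 250 bases in the genome, 7.02% held the STAT element, 14.0% the half-site and 3.17% the FOXA core. The CCAAT box was in 33.8%, TTNCNNNAA in 32.9%, the TATA box in 12.4% and the GC box in 32.7%. The upstream Hnf4a window held 2 matches to TTNCNNNAA and 1 CCAAT box in the printed stretch. Stat3 held 2 matches to TTNCNNNAA, 1 CCAAT box and 1 GC box. Cebpa held 1 TATA box, 30 to 25 bases before the start, and Nr1i3 held none of the 7 motifs. The STAT element was in 0 of these 4 windows, and in none of the windows of Ppara or of the second Hnf4a start. A window of Esr1, which was not listed, held it as TTCTAGGAA, 188 to 180 bases before the start. A match of letters is not a binding site, and a window of this length says nothing of sites farther away. The study reports a STAT3 motif upstream of Hnf4a, with STAT3 binding measured there by chromatin immunoprecipitation after rIL-13. That site lies farther from the start than these windows reach, so their lack of a STAT element says nothing of it.

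The 5 listed factors lie on chromosomes 2 (Hnf4a, 163506808 to 163572910), 11 (Stat3, 100885098 to 100939540), 15 (Ppara, 85734983 to 85802819), 1 (Nr1i3, 171213970 to 171220701) and 7 (Cebpa, 35119293 to 35121928) in GRCm38. Their longest annotated transcripts were 4362 nt for Hnf4a, 6042 nt for Stat3, 3413 nt for Ppara, 2980 nt for Nr1i3 and 2626 nt for Cebpa. The median over listed genes was 3431 nt for Hepatocyte4, 3618 nt for Hepatocyte5 and 918 nt for Hepatocyte1.

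Other transcription factors gave the setting of these values. Of 100 further transcription factors and coregulators, 21 were listed in the hepatocyte table, 17 for Hepatocyte4 and 9 for Hepatocyte5, and none for another cluster. For comparison, Hepatocyte4 held 54.7% of all genes in the hepatocyte table, Hepatocyte5 held 54.3%, and 82.2% were in either or both. The 21 genes thus lay where most listed genes lay. Of 38 other nuclear receptors 3 were listed, each for Hepatocyte4 alone. These were Rora, at 50.1% against 10.6%, the glucocorticoid receptor gene Nr3c1, at 29.2% against 4.7%, and Nr5a2, which regulates bile acid synthesis, at 27.9% against 4.7%. Of 36 other liver factors 16 were listed, with a median difference of 40.35 points for the 12 in Hepatocyte4 and 49.0 points for the 9 in Hepatocyte5. Nfia had 68.5% against 14.7% in Hepatocyte4, and the circadian and glucocorticoid-responsive factor Klf9 72.4% against 20.8%. Creb3l3, which works with PPARA in fasting, had 70.3% against 25.8% in Hepatocyte4 and 95.4% against 32.9% in Hepatocyte5. Mlxipl, the carbohydrate response factor ChREBP, was listed for Hepatocyte5, at 55.0% against 5.4%. Foxa2 was listed for Hepatocyte4, at 25.7% against 4.0%, whereas Foxa3 was listed nowhere. None of 11 other C/EBP and STAT family genes was listed for a hepatocyte cluster, so Stat3 and Cebpa were the only such genes there. Of 15 coregulators, Lpin1 and Ncor1 were listed for Hepatocyte4.

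Upstream of STAT3, 4 of 15 genes were listed in the hepatocyte table. The IL-6 receptor subunit genes Il6ra and Il6st had 33.4% against 4.5% and 28.7% against 4.0% in Hepatocyte4. In Hepatocyte5 they had 47.7% against 9.1% and 57.0% against 7.8%. Lifr, the receptor gene for leukemia inhibitory factor, had 27.4% against 5.7% in Hepatocyte4 and 60.9% against 8.9% in Hepatocyte5. Jak1 was listed for Hepatocyte4, at 28.6% against 6.0%. The IL-13 receptor genes Il13ra1 and Il4ra and the feedback inhibitor Socs3 were not listed. The median difference of the 4 genes in Hepatocyte4, 23.65 points, was below the 33.1 points of all its rows, and that of the 3 genes in Hepatocyte5, 49.2 points, was above 42.95.

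**Figure D3:**
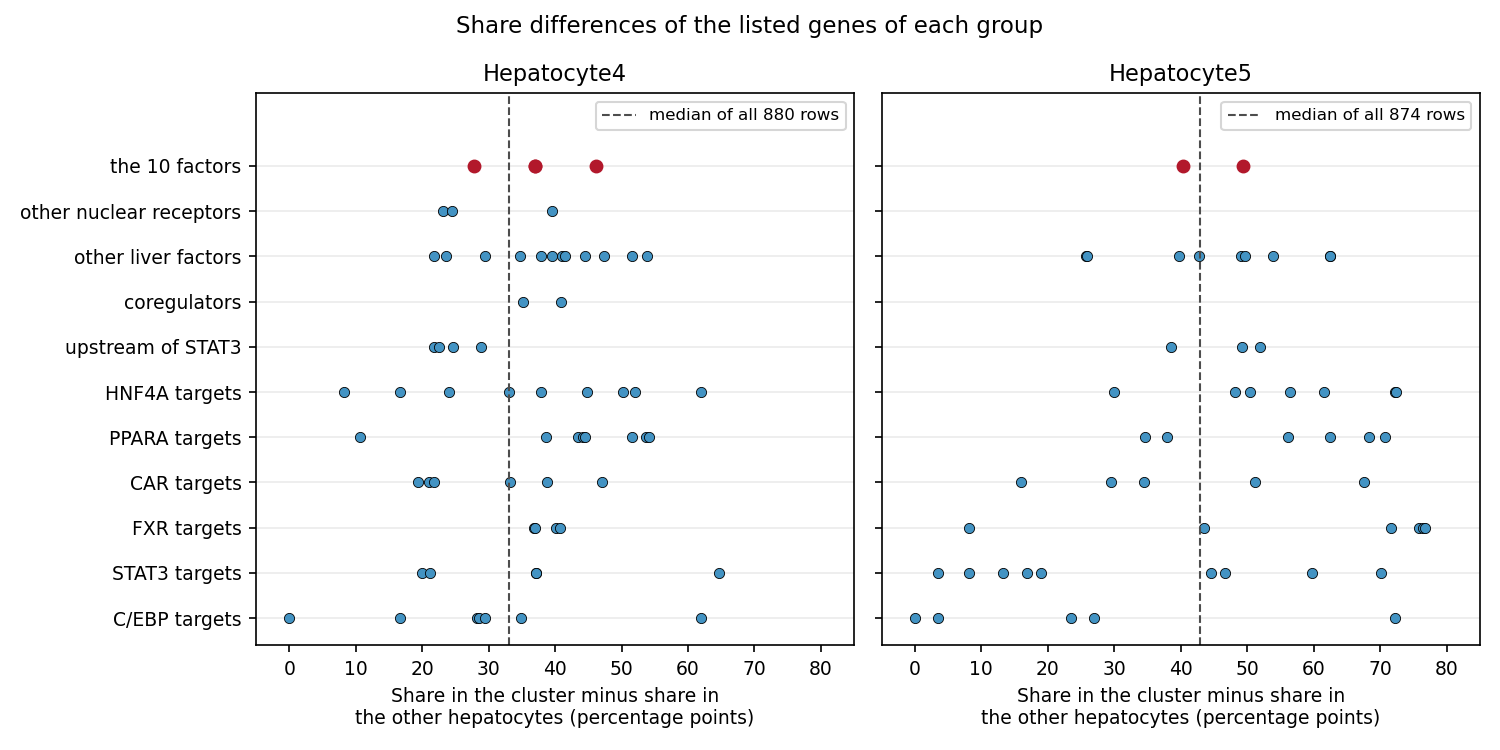
Difference between the share in the cluster and the share in the other hepatocytes (horizontal axis, percentage points) for the listed genes of each group (rows), in Hepatocyte4 (left) and Hepatocyte5 (right). Red points are the named factors, blue points the genes of the other groups, and the dashed line is the median of all listed genes. FXR targets in Hepatocyte5 include 4 genes between 71.7 and 76.8 points.

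Known target genes of the factors were described in the same way. Of all genes in the hepatocyte table, 54.7% were listed for Hepatocyte4 and 54.3% for Hepatocyte5. For Hepatocyte1 and Hepatocyte3 the percentages were 10.5% and 7.67%. The counts below are from the same table. Since the percentages cover listed genes only, a count per cluster compares with them out of the listed targets, not out of all targets. Of 14 HNF4A targets, 10 were listed for a hepatocyte cluster, 9 for Hepatocyte4 and 7 for Hepatocyte5. Their median differences were 37.9 and 56.4 points. G6pc, which releases glucose in the last step of gluconeogenesis, had 75.5% against 13.6% in Hepatocyte4 and 96.0% against 23.7% in Hepatocyte5. Mttp, which loads lipid onto apolipoprotein B, had 63.7% against 13.5% and 94.0% against 21.6%. The bile acid enzyme gene Cyp8b1 had 75.9% against 23.9% and 94.0% against 32.4%, and the coagulation factor gene F9 54.6% against 9.8% and 73.5% against 17.1%. Hnf4a itself was listed for Hepatocyte4 alone, while these 4 targets were listed for both clusters. Pck1, at 99.2% against 82.5% in Hepatocyte4, was near saturation in both groups of cells.

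Of 19 PPARA targets, 9 were listed for a hepatocyte cluster, 8 for Hepatocyte4 and 6 for Hepatocyte5. Their medians were 44.35 and 59.3 points. Cpt1a, which admits fatty acids to mitochondria, had 69.8% against 15.6% in Hepatocyte4 and 92.7% against 24.4% in Hepatocyte5. Angptl4, an inhibitor of lipoprotein lipase, reached 89.4% against 18.7% in Hepatocyte5. Ehhadh, of peroxisomal fatty acid oxidation, was listed for Hepatocyte4, at 88.2% against 34.5%.

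Of 14 CAR targets, 7 were listed for a hepatocyte cluster, 6 for Hepatocyte4 and 5 for Hepatocyte5. Their medians of 27.45 and 34.4 points were below those of all rows. Cyp2b10, the usual marker of CAR activity, had 48.2% against 9.4% in Hepatocyte4 and 66.9% against 15.7% in Hepatocyte5. Por, the reductase gene that supplies electrons to cytochromes P450, had 70.5% against 23.5% and 98.7% against 31.1%. These targets were thus listed for Hepatocyte4, where Nr1i3 was not. Nr1h4 was not listed. Of 10 FXR targets, 6 were listed for a hepatocyte cluster. Of these 6, 4 were listed for Hepatocyte4 and 6 for Hepatocyte5, beside 54.7% and 54.3% of all genes in the table. The bile salt export pump gene Abcb11 had 43.7% against 6.7% and 88.1% against 12.3%. The canalicular transporter gene Abcc2 had 48.6% against 8.4% and 91.4% against 14.6%, and its difference in Hepatocyte5, 76.8 points, was at rank 5 of 874 rows.

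STAT3 and C/EBP targets also included several Hepatocyte1 genes. Of 24 STAT3 targets, mainly acute phase genes, 13 were listed for a hepatocyte cluster. Hepatocyte4 held 5 of them, Hepatocyte5 held 9 and Hepatocyte1 held 5. Cp, encoding ceruloplasmin, had 94.0% against 29.3% in Hepatocyte4 and 100% against 40.2% in Hepatocyte5, and Lbp 88.7% against 18.5% in Hepatocyte5. The median difference of the STAT3 targets was 37.1 points in Hepatocyte4, above the 33.1 of all its rows, and 18.9 points in Hepatocyte5, below 42.95. The Hepatocyte5 median is the difference of Fgg, at 100% against 81.1%, and Hp had 100% against 96.6% there. For genes at such high shares outside the cluster a larger difference was not possible. In Hepatocyte1, where Stat3 was not listed, the serum amyloid genes Saa1 and Saa2 had 57.6% against 62.0% and 53.8% against 49.1%, and Hamp, encoding hepcidin, had 66.2% against 72.2%. Saa1 and Hamp thus had lower shares inside the cluster, as did 160 of the 170 Hepatocyte1 rows. Orm1 was lower too in the hepatocyte table, at 65.1% against 80.1%. In the table of all cells, computed from other values, the shares of these 3 genes were higher inside Hepatocyte1. Saa1 had 99.2% against 93.5%, Hamp 82.9% against 78.8% and Orm1 90.3% against 84.9%. Their fold changes for Hepatocyte1 were positive in both tables, as in every row, so only the direction of the shares differed. Of 12 C/EBP targets, 11 were listed for a hepatocyte cluster, with 7 in Hepatocyte4, 5 in Hepatocyte5, 3 in Hepatocyte1 and 1 in Hepatocyte3. Their median differences of 28.6 points in Hepatocyte4 and 23.5 points in Hepatocyte5 were below those of all rows. Saturation limited some of these differences too, with Alb at 100% on both sides in both clusters. Tat, a tyrosine-degrading enzyme gene, had 97.3% against 62.5% in Hepatocyte4, and the glycogen synthase gene Gys2 34.5% against 5.9%. Several genes stand in more than 1 list, G6pc, Hp and Saa1 among them, so the lists are not independent of each other.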

How the data were processed

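Single-cell RNA-seq of hepatocytes gave 1 library after PBS and 1 after rIL-33. Per the labels and methods, the authors counted transcripts with Cell Ranger on mm10 (GRCm38), kept cells with 200 to 3000 genes and at most 50% mitochondrial genes, scaled each cell to 10000, log transformed, clustered on 50 principal components with Seurat (v3.1.2 and v4.0.4) at resolution 5 and listed markers per cluster. The deposited fractions, printed as percentages, were computed by the authors as the proportion of cells with a value above 0. Whether those values were raw, corrected or imputed is not given in the sources used here, and the tables differ in them. Their fold changes and p-values compare each cluster with the other cells and were not used, beyond finding that 0 fold changes were not positive. Gene counts left out 7 hepatocyte rows whose names were stored as dates.

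Differences, ratios, odds ratios and ratios under Poisson counts were computed from the shares. Relative cluster sizes were fitted by least squares to 486 genes listed for several clusters. On simulated data (600 genes) the largest error of this fit was 0.0146 percentage points. That simulation drew the clusters of each gene at random, unlike the listing here, and had no error beyond rounding. Its error is therefore not that of the sizes here. Other fits to these data moved Hepatocyte3 from 10.08% to 10.19% or 9.99%. The shares and sizes carry no counting interval, since depth and cell numbers are not in the tables and were not taken from elsewhere. No doublet caller was run. Named genes were the 10 factors, the 4 genes of each list with the largest difference per cluster and the 3 genes nearest in shares to each factor, and Foxa2, Foxa3, Orm1, Pck1, Il13ra1, Il4ra and Socs3 were named after their values were seen. One gene that this rule selects is not reported here. The members and lists were chosen with earlier results of these data known. Transcripts are from GENCODE M21. Python 3.11.15, NumPy 2.4.6, pandas 2.3.3, SciPy 1.17.1 and matplotlib 3.10.9 were used.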

Additional observations from a re-analysis of the deposited data

How the results depend on the processing

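No paired analysis was possible because each condition gave 1 library and no result comes from a test. Among the share differences of the named factors, only that of Hnf4a had an alternative. In the table of all cells, where both the reference cells and the values differ, the Hnf4a difference in Hepatocyte4 was 34.6 points, and the factors listed, or higher by 10 points, were 1 in Hepatocyte4 and 0 in Hepatocyte5. The median ratio of the 4 Hepatocyte4 factors, 4.24, became 7.50 as an odds ratio, and their median rank, 349.5, became 604 by the ratio under Poisson counts. Cluster sizes fitted to rows at least 10 points apart were 55.6% (Hepatocyte1), 14.8% (Hepatocyte2) and 10.2% (Hepatocyte3), and in the table of all cells 55.5% (Hepatocyte1) and 9.99% (Hepatocyte3). Requiring a share 10 points higher left 0 target genes in Hepatocyte1, Hepatocyte2 and Hepatocyte3, and 3 of 5 C/EBP targets in Hepatocyte5. Of the values that answer a comparison, 85 stayed the same and 20 moved. Many of the 85 were counts of 0 that stayed 0, and a stricter threshold cannot change a count of 0. Among the ratios and ranks of single factors, counted apart from these, 8 stayed the same and 10 moved. Depth and the spread between mice are unknown and the tables give no cell numbers, so no precision is given for the shares, which rest on few cells in the smallest clusters.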
